A study of Mus musculus with 6 samples.

Results

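The pentose phosphate pathway was followed through 9 genes in RNA-seq counts of NIH/3T3 cells, a fibroblast line from mouse embryos. The genes were taken by name: the oxidative branch enzymes Pgls and Pgd with the endoplasmic reticulum enzyme H6pd, the non-oxidative branch enzymes Rpia, Rpe, Tkt and Taldo1, and Prps1 and Rbks, which use and supply ribose 5-phosphate. All 9 were found among the 54752 gene identifiers of the count table, and 8 passed the expression filter of at least 10 CPM (counts scaled to the library total) in more than 3 samples. Rbks did not pass. The cells formed 3 groups of 2 libraries each, collected after 72 h: vehicle, labelled PBS, the cytokine TGF-β1 (1 ng/ml) given together with DMSO, and the same dose of TGF-β1 together with 5 μM BI6727. BI6727 (volasertib) is an ATP-competitive inhibitor of polo-like kinase 1 (PLK1). The study used the model to ask how PLK1 inhibition alters the transcriptome of fibroblasts that TGF-β1 drives toward myofibroblasts. The labels do not name DMSO for the vehicle group, and the study's text describes that group as plain medium in places and as DMSO in another. If its cells had no DMSO, the effect of DMSO and that of TGF-β1 cannot be told apart.

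The pathway branches from glycolysis at glucose 6-phosphate. Its oxidative branch yields NADPH, the reducing agent of lipid synthesis and antioxidant defence, and ribulose 5-phosphate, and its non-oxidative branch interconverts sugar phosphates, linking ribose 5-phosphate for nucleotides with glycolytic intermediates. In proliferating fibroblasts both products are in demand. The mRNA levels given here do not measure the activity of the enzymes.

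The libraries held between 18362378 and 24452153 counts. The 2 TGF-β1 + DMSO libraries differed more from each other than the replicates of the other groups. The SD of the log2 difference between replicates over genes was 0.377 there, against 0.163 for vehicle and 0.147 for TGF-β1 + BI6727. The study's methods speak of biological replicates, in a number of groups that differs from these libraries, and neither they nor the labels say that replicates were separate cultures, so p-values measure only the spread between these libraries, which may be technical. Of 10 fibroblast markers, 8 reached 10 CPM in every library, whereas Adgre1 and Cd3e (leukocyte), Krt18 (epithelial), Kdr (endothelial), and Myod1 and Myog (skeletal muscle) had 0 counts throughout. Other markers of these cell types were detected at low levels. Cd68, found in macrophages, was at 2.51 to 4.50 normalized CPM over the 6 libraries. The summed level of the 3 endothelial markers was 0.208 to 0.728 normalized CPM in vehicle, 2.89 to 3.57 with TGF-β1 + DMSO and 1.89 to 2.32 with TGF-β1 + BI6727. Cdh5, which had at most 64 counts, made up most of it in the 4 TGF-β1 libraries, and was at 0 and 0.501 in vehicle. The summed level was at most 4.69 for the 4 leukocyte markers, 0.612 for the 4 epithelial, 1.78 for the 3 skeletal muscle and 1.59 for the 2 erythroid markers. Their part in the results was not tested. Acta2, the actin of myofibroblasts, rose with TGF-β1 by a log2 fold change of 2.30 (SE 0.0999, n = 2 per group, adjusted p = 2.71e-05, edgeR), as did Ccn2 (12.6-fold), a known TGF-β1 target, but Tagln and Cnn1, 2 other contractile markers, did not reach the expression filter. Tagln had at most 33 counts in any library, and Cnn1 had 25 and 21 counts in vehicle against 6 and 2 with TGF-β1 + DMSO. Col1a1, a collagen gene, was at 441.9 and 380.1 normalized CPM in vehicle and 858.7 and 446.8 with TGF-β1 + DMSO, and did not pass (log2 fold change 0.67, adjusted p = 0.115, edgeR). In bulk RNA, fewer cells of a kind and less RNA per cell cannot be told apart.

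To compare the genes with each other, counts were divided by the exonic length and scaled to TPM, a measure in which all genes of a library sum to the same total. Taldo1, the transaldolase of the non-oxidative branch, was the highest of the 9 in all 6 libraries, at 305.6 to 362.9 TPM. Pgd (61.0 to 90.1 TPM), Pgls (57.2 to 80.2) and Tkt (56.0 to 72.6) formed a middle group whose ranges overlapped, and neighbours in that order kept it in 4 or 5 of 6 libraries only. Prps1 (34.6 to 44.4 TPM) and Rpe (35.5 to 42.2) were next and overlapped with each other. Below them, H6pd lay at 7.42 to 19.8 TPM and Rpia at 4.03 to 8.12 TPM, in that order in 6 of 6 libraries although their ranges overlapped. Rbks, the kinase that phosphorylates free ribose, was lowest, at 0.688 to 1.55 TPM.

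**Figure D1:**
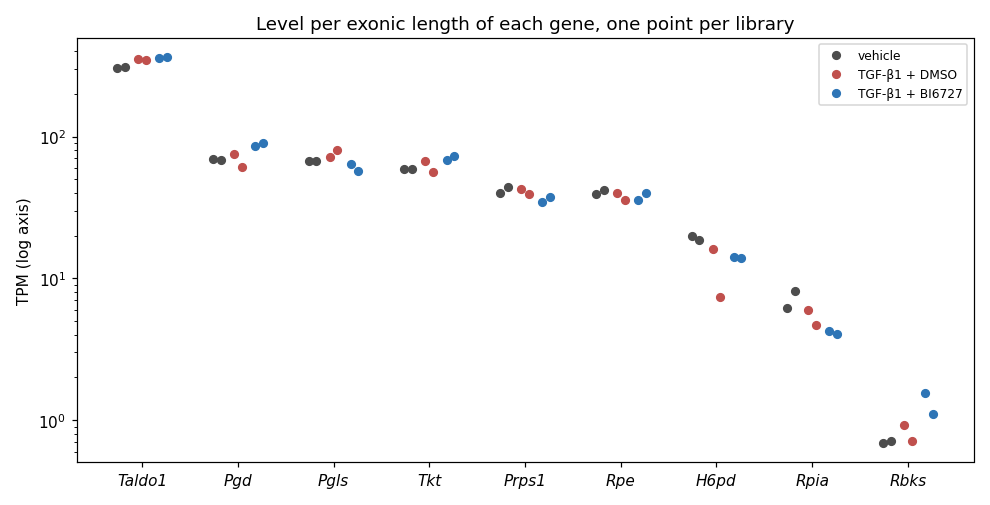
Level of each gene per exonic length in TPM, on a log axis, with 1 point for each of the 6 libraries, coloured by group. Taldo1 stands above the other genes at 305.6 to 362.9 TPM, Pgd, Pgls and Tkt overlap, and Rbks is lowest at 0.688 to 1.55 TPM.

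In the main fit of all 6 libraries, none of the 8 tested genes passed at an adjusted p below 0.01 in any comparison (edgeR quasi-likelihood F-test, Benjamini-Hochberg adjusted over all genes). Fits with other settings, some of which called members, are described at the end. Pgd, Tkt and Rpia gave the smallest adjusted p among them, each for TGF-β1 + BI6727 against vehicle, with Pgd and Tkt at higher levels and Rpia at a lower one. Levels below are in CPM normalized by TMM (trimmed mean of M values), and each log2 fold change rests on 2 libraries per group. The comparisons share libraries, so they are not independent of each other.

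H6pd (chr4:149979475-150009023, minus strand, mm10) encodes the hexose-6-phosphate dehydrogenase of the endoplasmic reticulum lumen, where it supplies NADPH apart from the cytosolic pool. It shared no exonic stretch with another gene. It was at 52.6 and 49.7 normalized CPM in vehicle, 41.7 and 24.9 with TGF-β1 + DMSO, and 41.3 and 38.2 with TGF-β1 + BI6727. All 4 TGF-β1 libraries lay below both vehicle libraries, but the TGF-β1 + DMSO replicates stood 0.74 log2 units apart, the widest replicate gap among the 8 tested genes. The log2 fold change of -0.62 against vehicle (95% interval -1.14 to -0.10) did not pass (adjusted p = 0.0846, edgeR). With TGF-β1 + DMSO replicate 1 left out it was -1.04, and with replicate 2 left out it was -0.28, each from 1 library of that group.

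Pgls (chr8:71592176-71601092, plus strand) encodes 6-phosphogluconolactonase, which opens the lactone formed in the first step of the oxidative branch. Its normalized CPM was 128.1 and 129.2 in vehicle, 133.3 and 193.7 with TGF-β1 + DMSO and 132.7 and 113.9 with TGF-β1 + BI6727. TGF-β1 + DMSO replicate 2 was the highest library and TGF-β1 + BI6727 replicate 2 the lowest, and the other 4 lay within a narrow band. Neither the difference from vehicle (log2 fold change 0.35, 95% interval -0.06 to 0.76, adjusted p = 0.190) nor that between TGF-β1 + BI6727 and TGF-β1 + DMSO (-0.41, adjusted p = 0.745, edgeR) passed. Without TGF-β1 + DMSO replicate 1 these values were 0.58 and -0.65. Without replicate 2 they were 0.06 and -0.13, so in this fit the size of each depends on 1 library of that group. The TPM of Pgls was 67.1 and 66.9 in vehicle and 72.1 and 80.2 with TGF-β1 + DMSO. It was 63.5 and 57.2 with TGF-β1 + BI6727, so in TPM the groups did not overlap. Pgls shares 20.6% of its exonic length with Fam129c on the same strand, but Fam129c was low, at no more than 7.8 normalized CPM.

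Pgd (chr4:149149991-149166771, minus strand) encodes 6-phosphogluconate dehydrogenase, which yields NADPH and ribulose 5-phosphate. Its normalized CPM was 225.6 and 227.0 in vehicle, 239.4 and 251.9 with TGF-β1 + DMSO and 308.5 and 307.0 with TGF-β1 + BI6727. The 3 groups did not overlap, and the TGF-β1 + BI6727 libraries were the highest. Against TGF-β1 + DMSO the level with BI6727 was 1.25 times as high (log2 fold change 0.32, SE 0.0874, 95% interval 0.12 to 0.53), and the adjusted p was 0.583 (unadjusted 0.00692, edgeR across all genes). With TGF-β1 + DMSO replicate 1 left out the adjusted p was 0.00691, and with replicate 2 left out it was 0.00762 (edgeR, with the lone library assumed to vary like the others). Without either BI6727 library the adjusted p was 0.9995 and 0.9998, and without either vehicle library it was 0.981 and 0.983 (edgeR). Over the 6 libraries left out in turn, the log2 fold change of Pgd lay between 0.29 and 0.35. Against vehicle, TGF-β1 + BI6727 gave 0.44 (SE 0.0875, 95% interval 0.24 to 0.65, adjusted p = 0.0110, edgeR), just outside the threshold. With replicate number added to the edgeR fit, that adjusted p was 0.0285. DESeq2 gave 0.44 with adjusted p = 0.000662. TGF-β1 + DMSO against vehicle gave 0.12 (95% interval -0.09 to 0.32).

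**Figure D2:**
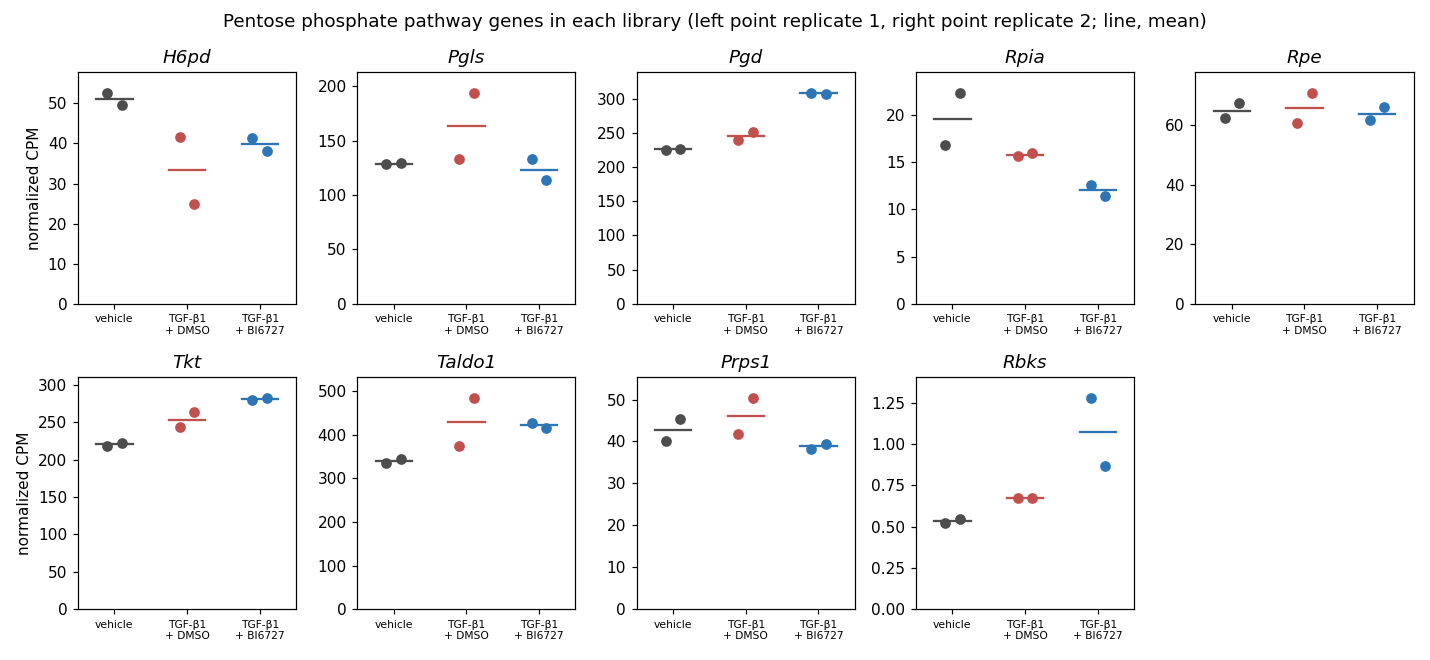
TMM-normalized CPM of the 9 genes in each library, with separate vertical axes that start at 0. Points are replicates 1 and 2 and lines are group means. Pgd is highest in both BI6727 libraries, and the TGF-β1 + DMSO points of H6pd, Pgls and Taldo1 are far apart.

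In the non-oxidative branch edgeR called 0 of the 4 genes in any comparison of the main fit. At an unadjusted p below 0.05 it was 1 gene (Taldo1) for TGF-β1 + DMSO against vehicle (37.8% of all tested genes), 0 for TGF-β1 + BI6727 against TGF-β1 + DMSO (6.68%) and 2 (Rpia and Tkt) for TGF-β1 + BI6727 against vehicle (37.7%), and DESeq2 called Rpia in the last of these. Rpia (chr6:70765720-70792232, minus strand), the isomerase that makes ribose 5-phosphate, was at 16.8 and 22.3 normalized CPM in vehicle, 15.6 and 16.0 with TGF-β1 + DMSO and 12.6 and 11.4 with TGF-β1 + BI6727. The BI6727 libraries were the lowest, without overlap with either other group. Against vehicle the log2 fold change of Rpia with TGF-β1 + BI6727 was -0.71 (SE 0.174, 95% interval -1.12 to -0.30, adjusted p = 0.0251, edgeR), the lowest value among the members in that comparison. Against TGF-β1 + DMSO it was -0.40 (95% interval -0.81 to 0.01, adjusted p = 0.745). The values against vehicle depended on the vehicle library used. For TGF-β1 + DMSO the log2 fold change of Rpia was -0.50 without vehicle replicate 1 and -0.09 without vehicle replicate 2. For TGF-β1 + BI6727 against vehicle it lay between -0.90 and -0.49 over libraries left out in turn.

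Rpe (chr1:66700831-66719805, plus strand), the epimerase that makes xylulose 5-phosphate from the same substrate, had the narrowest relative range over the 6 libraries among the members. Its normalized CPM was 62.2 and 67.3 in vehicle, 60.6 and 70.7 with TGF-β1 + DMSO, and 61.8 and 65.9 with TGF-β1 + BI6727. The groups overlapped in every pairing. The 95% intervals of its log2 fold change were -0.26 to 0.30 for TGF-β1 + DMSO against vehicle and -0.32 to 0.24 for TGF-β1 + BI6727 against TGF-β1 + DMSO. Rpe overlaps the antisense gene Kansl1l over 17.9% of its exonic length. Whether the counting used strand is not given in the sources used here, so reads in that stretch may not have been separated.

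Tkt (chr14:30548359-30574720, plus strand) encodes transketolase, which moves ketol units between sugar phosphates. It was at 218.4 and 222.6 normalized CPM in vehicle, 243.7 and 263.8 with TGF-β1 + DMSO, and 279.9 and 282.3 with TGF-β1 + BI6727. The 3 groups did not overlap, in the same order as for Pgd. The log2 fold change was 0.20 for TGF-β1 + DMSO against vehicle (95% interval -0.01 to 0.41), 0.15 for TGF-β1 + BI6727 against TGF-β1 + DMSO (-0.06 to 0.36), and 0.35 for TGF-β1 + BI6727 against vehicle (0.14 to 0.56, adjusted p = 0.0298, edgeR).

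The promoters of Pgd and Tkt are shown because these genes lay in the same order of groups in normalized CPM. The 250 bases before the RefSeq start (GRCm38.p6) are given 5′ to 3′, for Pgd chr4:149166706-149166955 (minus strand, the first of its 2 windows) and for Tkt chr14:30548881-30549130 (plus strand). Capitals mark GC boxes (GGGCGG) and CCAAT boxes (CCAAT) on either strand.
Pgd: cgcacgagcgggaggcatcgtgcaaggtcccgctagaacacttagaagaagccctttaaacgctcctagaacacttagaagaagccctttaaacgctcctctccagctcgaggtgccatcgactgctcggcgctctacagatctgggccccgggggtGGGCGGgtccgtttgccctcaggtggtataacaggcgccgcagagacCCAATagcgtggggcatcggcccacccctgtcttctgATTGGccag
Tkt: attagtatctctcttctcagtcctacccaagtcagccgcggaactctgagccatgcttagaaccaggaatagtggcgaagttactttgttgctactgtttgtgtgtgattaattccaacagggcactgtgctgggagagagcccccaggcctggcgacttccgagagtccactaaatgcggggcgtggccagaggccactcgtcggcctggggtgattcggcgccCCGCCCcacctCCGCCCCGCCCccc
Pgd held 1 GC box and 2 CCAAT boxes and Tkt held 3 GC boxes, 2 of which share a base, and no CCAAT box. Of 32851 RefSeq promoter windows of this length, 32.7% held a GC box and 33.8% a CCAAT box. All 9 genes matched the promoter table. Only Rbks held the core of the antioxidant response element (TGACNNNGC, 10.2% of windows), and none held the E-box CACGTG (6.02%). A match describes the letters of the window and not binding.

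Taldo1 (chr7:141392199-141402968, plus strand) was at 336.1 and 345.9 normalized CPM in vehicle, 374.2 and 484.5 with TGF-β1 + DMSO, and 427.4 and 416.4 with TGF-β1 + BI6727. All 4 TGF-β1 libraries were above vehicle, and in this measure the BI6727 libraries lay between the 2 DMSO libraries. In TPM the BI6727 libraries (355.2 and 362.9) were above both DMSO libraries (351.7 and 348.3). The log2 fold change against vehicle was 0.33 with TGF-β1 + DMSO (95% interval 0.02 to 0.64, adjusted p = 0.113) and 0.31 with TGF-β1 + BI6727 (95% interval -0.0038 to 0.62, adjusted p = 0.137, edgeR). The former was 0.50 without TGF-β1 + DMSO replicate 1 and 0.15 without replicate 2, each from 1 library of that group. Taldo1 shared 6.67% of its 50-base windows with Gm17823.

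Prps1 (chrX:140456613-140476140, plus strand) makes phosphoribosyl pyrophosphate, the activated ribose of nucleotide synthesis, from ribose 5-phosphate. Its normalized CPM was 40.1 and 45.3 in vehicle, 41.8 and 50.3 with TGF-β1 + DMSO, and 38.3 and 39.4 with TGF-β1 + BI6727. The BI6727 libraries were the lowest and the other groups overlapped. Its log2 fold change for TGF-β1 + BI6727 against TGF-β1 + DMSO was -0.24 (95% interval -0.56 to 0.07, adjusted p = 0.764, edgeR). Of the 50-base windows of its transcripts, 9.93% also occur in Prps1l3. That gene was at 48.8 to 59.9 normalized CPM, above Prps1 in every library, and the part of shared reads was not tested. Rbks (chr5:31624439-31697627, minus strand) had 10 and 12 counts in vehicle, 14 and 14 with TGF-β1 + DMSO and 23 and 21 with TGF-β1 + BI6727, too few for the filter. With a looser filter its log2 fold change for TGF-β1 + BI6727 against vehicle was 1.01 (adjusted p = 0.178, edgeR).

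Over the 8 tested members, edgeR called 0 higher and 0 lower with TGF-β1 + DMSO against vehicle at an adjusted p below 0.01, where 4.92% of all 9518 tested genes rose and 4.91% fell, and DESeq2 called 0. With 8 genes, a count of 0 cannot be set apart from that background. The share of all genes called by DESeq2 in this comparison is not given here. No member also differed by more than 2-fold (5.10% of all genes), 0 passed at an adjusted p below 0.05 (23.0%), 2 had an unadjusted p below 0.05 (H6pd and Taldo1, 37.8%), and 6 did not overlap between the groups (62.9%). The median log2 fold change was 0.11 over the members and -0.0045 over all tested genes.

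For TGF-β1 + BI6727 against TGF-β1 + DMSO, edgeR called 0 members higher and 0 lower (0% of all genes in each direction), 0 past 2-fold (0%), 0 at an adjusted p below 0.05 (0%), and 1 (Pgd) at an unadjusted p below 0.05 (6.68%), and DESeq2 called 0 members higher (0.0105% of all genes) and 0 lower (0.252%). In 5 members (Pgls, Pgd, Rpia, Tkt and Prps1) the groups did not overlap, against 34.1% of all genes. The median log2 fold change was -0.03 over the members and -0.0028 over all genes.

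Against vehicle, TGF-β1 + BI6727 gave 0 members higher (4.94% of all genes) and 0 lower (5.99%) at an adjusted p below 0.01 in edgeR, and 0 past 2-fold as well (5.31%). DESeq2 called Pgd higher (8.68% of all genes) and Rpia lower (10.5%). At an adjusted p below 0.05, 3 members passed in edgeR (24.5% of all genes): Pgd and Tkt with higher levels and Rpia with a lower one. The same 3 had an unadjusted p below 0.05 (37.7%), and 6 members did not overlap between the groups (76.8%). The median was -0.04 over the members and 0.0029 over all genes. The wide spread of the TGF-β1 + DMSO replicates enters this test through the shared fit. With only the 4 libraries compared, Pgd, Tkt and Taldo1 were called higher (20.4% of all genes) and H6pd and Rpia lower (21.2%), which is 5 of 8 members.

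**Figure D3:**
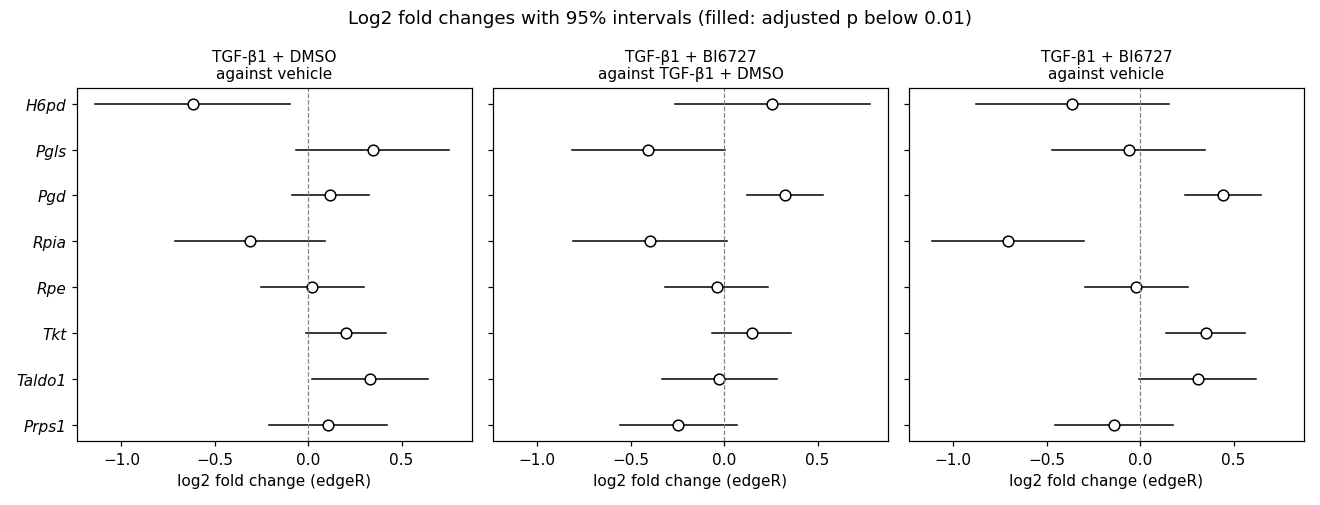
Log2 fold change with its 95% interval from edgeR for the 8 tested genes in the 3 comparisons. No point is filled, since no adjusted p is below 0.01. In the middle panel the interval of Pgd (0.12 to 0.53) is the one that does not include 0.

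The comparisons with TGF-β1 + DMSO depended on which of its libraries was used. A fit with 1 of them left out takes the spread from the other groups. Its calls do not measure the spread within TGF-β1 + DMSO. With replicate 1 left out, 3 members were called higher than vehicle (Pgls, Tkt and Taldo1, against 22.5% of all genes) and 1 lower (H6pd, against 24.5%). With the same library left out, TGF-β1 + BI6727 was higher than TGF-β1 + DMSO in H6pd and Pgd (9.19% of all genes) and lower in Pgls (8.32%). With replicate 2 left out instead, 0 members were higher than vehicle (13.9%) and 0 lower (13.2%), and TGF-β1 + BI6727 was higher than TGF-β1 + DMSO in Pgd (0.714% of all genes) and lower in 0 members (1.71%). The log2 gap between the TGF-β1 + DMSO replicates was taken in normalized CPM as replicate 2 minus replicate 1. It was -0.74 for H6pd, 0.54 for Pgls, 0.37 for Taldo1, 0.27 for Prps1 and 0.22 for Rpe. It was 0.07 for Pgd and 0.04 for Rpia. The gaps depend on the measure. In TPM, replicates 1 and 2 were at 351.7 and 348.3 for Taldo1, 42.8 and 39.4 for Prps1, and 39.7 and 35.5 for Rpe. Pgd was at 75.8 and 61.0 TPM and Rpia at 5.94 and 4.66. H6pd (16.2 and 7.42) and Pgls (72.1 and 80.2) kept their direction. For H6pd the sign of the BI6727 comparison turned with the library: with replicate 1 left out it was 0.68, and with replicate 2 left out -0.08. Mitochondrial transcripts took 3.41% of counts in TGF-β1 + DMSO replicate 1 and 5.58% in replicate 2, and the part of this difference in the member values was not tested.

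**Figure D4:**
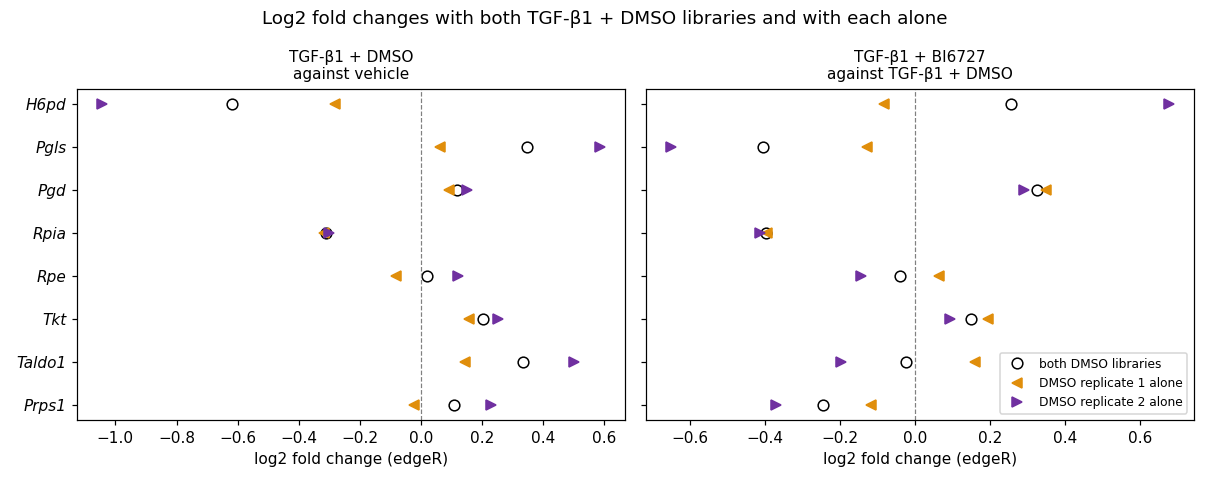
Log2 fold change of the 8 tested genes with both TGF-β1 + DMSO libraries (open circles) and with replicate 1 or replicate 2 alone (triangles), against vehicle on the left and for BI6727 on the right. H6pd moves between -0.28 and -1.04 against vehicle, while Pgd and Rpia hardly move with the TGF-β1 + DMSO library used. Fits without a vehicle library are not shown.

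Because each ratio is taken within 1 library, the balance between members was also described, with no test. Tkt and Pgd lay in the same order of groups in normalized CPM. In TPM, their TGF-β1 + DMSO libraries lay on either side of vehicle. Pgd was at 75.8 and 61.0 TPM there against 69.05 and 68.73 in vehicle, and Tkt at 67.6 and 56.0 against 58.6 and 59.1. The TPM ratio of Tkt to Pgd was 0.849 and 0.860 in vehicle, 0.892 and 0.918 with TGF-β1 + DMSO, and 0.796 and 0.806 with TGF-β1 + BI6727. The BI6727 libraries had the lowest ratios, beside the higher Pgd level. The ratio of Pgls to Pgd, consecutive steps of the oxidative branch, was 0.971 and 0.974 in vehicle, 0.952 and 1.32 with TGF-β1 + DMSO, and 0.736 and 0.635 with TGF-β1 + BI6727, again lowest with BI6727. The sum over all 9 genes was 606.2 and 619.6 TPM in vehicle, 672.8 and 633.1 with TGF-β1 + DMSO and 664.2 and 679.2 with TGF-β1 + BI6727. Vehicle thus lay below the other groups, which overlapped. Taldo1 was the largest part of this sum. Alone it was at 305.6 and 311.0 TPM in vehicle, 351.7 and 348.3 with TGF-β1 + DMSO, and 355.2 and 362.9 with TGF-β1 + BI6727. The ratio of Rpia to Rpe, the enzymes that compete for ribulose 5-phosphate, was 0.157 and 0.193 in vehicle, 0.149 and 0.131 with TGF-β1 + DMSO, and 0.118 and 0.101 with TGF-β1 + BI6727. In this ratio the 3 groups did not overlap.

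**Figure D5:**
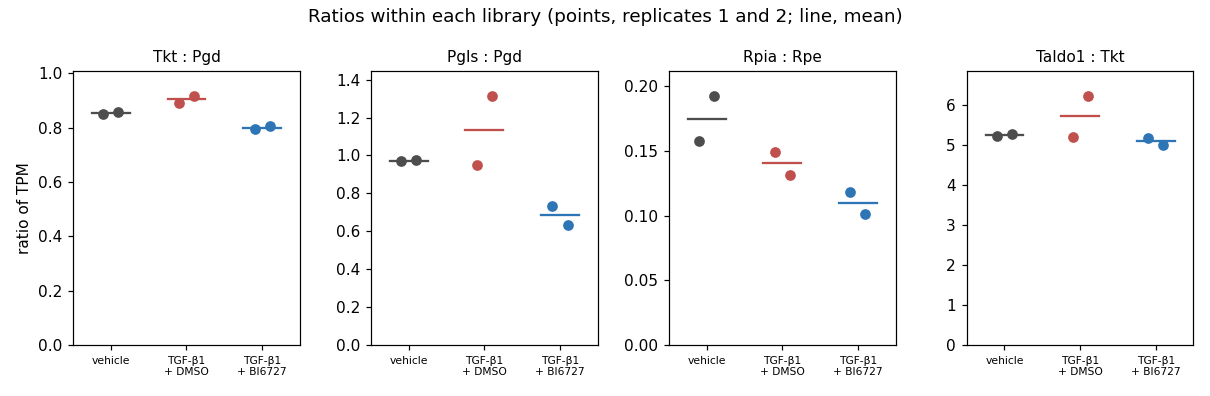
Ratios of TPM within each library, with points for replicates 1 and 2, lines for group means and axes from 0. The ratio of Tkt to Pgd is at most 0.806 with BI6727 and at least 0.849 elsewhere, and the ratio of Taldo1 to Tkt stays at 5.00 to 5.27 in all libraries but TGF-β1 + DMSO replicate 2 (6.22).

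The genes around the pathway were read from fixed lists. Their counts of calls stand beside 4.92% of all tested genes higher and 4.91% lower with TGF-β1 + DMSO against vehicle, and 4.94% and 5.99% with TGF-β1 + BI6727 against vehicle. Of 10 tested genes of glucose entry and shared glycolysis, 3 rose with TGF-β1 + DMSO: Slc2a1, the glucose transporter GLUT1 (log2 fold change 0.75, adjusted p = 0.00338), Pfkp, a phosphofructokinase (0.74, adjusted p = 0.00623), and Aldoa, an aldolase (0.67, adjusted p = 0.00366, edgeR). All 3 also rose with TGF-β1 + BI6727 against vehicle. The median of this list was 0.27 with TGF-β1 + DMSO, beside -0.0045 over all tested genes. Of 8 tested paralogs and further pathway enzymes, 1 rose, Pgm1 (0.56, adjusted p = 0.00547), a phosphoglucomutase, and the list's median was 0.17. Of 10 tested genes for other routes of NADPH supply, 2 passed with lower levels and none with higher, and the median was -0.20. Mthfd2, of the same list, was at a higher level but did not pass (0.87, adjusted p = 0.01855, edgeR). In this list 4 genes had an unadjusted p below 0.05 (37.8% of all tested genes). Aldh1l1, of the same list, did not reach the filter and was not tested. It had 3 and 0 counts in vehicle, 209 and 212 with TGF-β1 + DMSO, and 106 and 206 with TGF-β1 + BI6727. Me3 and Nnt, also untested, had at most 13 counts in any library. Idh1, the cytosolic NADP-dependent isocitrate dehydrogenase, was at 279.4 and 238.2 normalized CPM in vehicle and between 104.8 and 119.3 in the 4 TGF-β1 libraries (log2 fold change -1.27 with TGF-β1 + DMSO, adjusted p = 0.000412). Nadk2, the mitochondrial NAD kinase, which makes NADP, gave a log2 fold change of -1.64 (adjusted p = 0.000888, edgeR). Both also fell with TGF-β1 + BI6727 against vehicle, to log2 fold changes of -1.16 and -1.58 (adjusted p = 0.000491 and 0.000944, edgeR).

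Among 11 tested NADPH-using enzymes and 11 tested users of ribose phosphate, edgeR called none in any comparison at an adjusted p below 0.01, and their medians against vehicle with TGF-β1 + DMSO were 0.16 and 0.12. For TGF-β1 + DMSO against vehicle, 4 of the NADPH users and 1 of the ribose phosphate users had an unadjusted p below 0.05 (37.8% of all tested genes), and DESeq2 called 0 of either. For TGF-β1 + BI6727 against vehicle these counts were 7 and 2 (37.7% of all tested genes). There DESeq2 called 2 NADPH users (Fasn and Txnrd1) and 0 ribose phosphate users, beside 8.68% of all tested genes higher and 10.5% lower. Of 12 tested regulators of the pathway, 2 fell with TGF-β1 + DMSO: Nfe2l2, which encodes NRF2, the transcription factor of the antioxidant response (-0.53, adjusted p = 0.00741), and Plk1, the target of BI6727 (-0.52, adjusted p = 0.00888, edgeR). Plk1 was at 98.7 and 105.5 normalized CPM in vehicle, 71.6 and 70.5 with TGF-β1 + DMSO, and 60.2 and 63.4 with TGF-β1 + BI6727. BI6727 acts on the protein, so this level does not check the treatment. The median of the regulators was -0.33. Of 10 tested NRF2 targets outside the pathway, 1 rose, Hmox1, the inducible heme oxygenase (0.69, adjusted p = 0.00766, edgeR). The median of these targets was 0.14. Fth1, of the same list, was at a lower level but did not pass (-0.87, adjusted p = 0.0147, edgeR). Of these targets, 4 had an unadjusted p below 0.05 (37.8% of all tested genes), and DESeq2 called 2. The share of all genes that DESeq2 called with TGF-β1 + DMSO against vehicle is not given here. Its counts for these lists in that comparison therefore have no background beside them. None of these lists had a gene called by edgeR between TGF-β1 + BI6727 and TGF-β1 + DMSO, where edgeR called 0 of all 9518 genes. There 636 genes had an unadjusted p below 0.05, and DESeq2 called Tpi1 of the glycolytic list, triose phosphate isomerase. Of the myofibroblast genes, DESeq2 called 2 lower with BI6727, Acta2 and Ccn2, which gave log2 fold changes of -0.50 (adjusted p = 0.468) and -0.70 (adjusted p = 0.195) in edgeR.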

How the data were processed

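The authors sequenced single-end RNA libraries, mapped them with Subjunc (Subread 1.6.4) to mm10 and deposited the featureCounts gene counts used here, made with a Gencode mouse annotation. The strand setting is not given in the sources used here. Of these raw counts, the tests used the 9518 genes that reached 10 CPM in more than 3 of the samples, the filter of the study's methods. All 6 libraries were fitted together with edgeR 4.0.16 (R 4.3.3) after TMM normalization, with the quasi-likelihood test, 3 residual degrees of freedom and Benjamini-Hochberg adjustment over all tested genes. A gene was called at an adjusted p below 0.01, the study's threshold, with no fold minimum. The study also set a minimum on the fold change, so counts past 2-fold are given as well. Standard errors were taken from the log2 fold change and its F statistic, and intervals are at 95%. TPM used exonic lengths from a Gencode annotation of mm10. Where several identifiers shared a symbol, the one with the highest total was used. The code was tested on simulated data. Promoter sequences came from RefSeq (GRCm38.p6). The members and lists were chosen with earlier results of these data known. The named genes were all members, Plk1, Acta2 and, of each list, up to 6 genes called in any comparison. Other marker and list genes named beside them were chosen after their values were seen. Alternatives were DESeq2 1.42.0 and its size factors, other filters, length offsets, the compared groups only, a replicate block and leaving out each library. Some items, among them 1 enzyme of the pathway, are not reported here, and counts over members and lists leave them out.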

Additional observations from a re-analysis of the deposited data

How the results depend on the processing

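With 2 libraries per group and 3 residual degrees of freedom, 1 library can decide a call. Where 1 library is left out, the spread of its group is taken from the other groups. For TGF-β1 + DMSO against vehicle edgeR called 0 members in each direction, and leaving out each library gave 0 to 3 higher and 0 to 1 lower. For TGF-β1 + BI6727 against TGF-β1 + DMSO, leaving out each library gave 0 to 2 higher and 0 to 1 lower. For TGF-β1 + BI6727 against vehicle edgeR called 0 in each direction. DESeq2 called 1 higher (8.68% of all genes) and 1 lower (10.5%). Length offsets gave 1 higher without and with the replicate block. The fit of the 2 groups gave 3 higher (20.4% of all genes) and 2 lower (21.2%). A threshold of 0.05 gave 2 higher and 1 lower (24.5% of all genes in either direction). Leaving out each library gave 0 to 3 higher and 0 to 2 lower. The cause of these differences was not tested. The share over all genes is not given for length offsets or with a vehicle or BI6727 library left out. Counts from those fits are therefore not results about the members.

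No pairing by replicate number was seen: the correlations of same-numbered deviations were -0.11, 0.0466 and -0.258 between the groups. These values cannot tell whether same-numbered libraries were handled together. Under the replicate block, as under a crossed pairing that was chosen after seeing the data, 0 members were called in each comparison and direction (edgeR).

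The sign of 5 members' values turned under some settings. With length offsets, TGF-β1 + DMSO against vehicle became -0.021 for Rpe and -0.0035 for Prps1 (-0.021 and -0.00081 with the replicate block), and TGF-β1 + BI6727 against TGF-β1 + DMSO became 0.026 for Taldo1 (0.028 with the block). Over libraries left out in turn, the values against vehicle with TGF-β1 + DMSO ranged from -0.083 to 0.12 for Rpe and -0.023 to 0.23 for Prps1. For TGF-β1 + BI6727 against TGF-β1 + DMSO they ranged from -0.082 to 0.68 for H6pd, -0.14 to 0.062 for Rpe and -0.20 to 0.16 for Taldo1, and against vehicle from -0.18 to 0.042 for Pgls and -0.080 to 0.039 for Rpe.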
